A study of Homo sapiens with 6 samples.

Results

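The SRSF, HNRNP and SF3 genes encode proteins that decide where and how precursor messenger RNA is spliced. They were taken as every row of the deposited table whose symbol begins with SRSF and a digit, with HNRNP, or with SF3A or SF3B. The rule found 81 of the 16315 genes. Of these, 41 are protein-coding genes of the families themselves (12 SRSF, 20 HNRNP and 9 SF3), 39 are pseudogenes or like-named copies of such a gene, and 1 is a divergent non-coding transcript, HNRNPD-DT. RefSeq marks HNRNPA1L2, HNRNPA1L3 and HNRNPCL1 as protein-coding, but here they count as copies. The cells were F36P, a human leukaemia line with erythroid features. In 3 libraries they carried sgHDAC7, a guide RNA against the class IIa histone deacetylase HDAC7, and the labels give the genotype as HDAC7 knockout. In the other 3 they carried the non-targeting guide sgNT, with a wild-type genotype. Cells of both groups were selected for puromycin resistance at 1 µg/ml for 4 days. Poly-A messenger RNA of the bulk culture was sequenced, with no selection of single clones named. The libraries are labelled as biological replicates, but no label says that they came from separate cultures, so the p-values measure the spread between these libraries.

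SR proteins (SRSF) carry RNA-binding domains and a tail rich in arginine and serine, and mostly promote the use of the exons they bind. The heterogeneous nuclear ribonucleoproteins (HNRNP) coat nascent transcripts, and several of them repress exons that SR proteins activate. SF3A and SF3B are complexes of the U2 small nuclear ribonucleoprotein, which recognises the branch point ahead of the 3′ splice site. SF3B1 and SRSF2 are recurrently mutated in myeloid neoplasms, and control of splicing changes as erythroblasts mature.

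Library totals ran from 11645003 to 12521195 counts in sgHDAC7 and from 10039693 to 11149179 in sgNT, and 3 counts correspond to 0.241 to 0.296 CPM, the counts scaled to a common library size. HDAC7 itself had 194, 239 and 246 CPM in sgHDAC7, against 449.9, 460.4 and 462 CPM in sgNT (log2 fold change -1.02 ± 0.09 SE, edgeR adjusted p = 0.00139). Its messenger RNA was therefore lower in all 3 sgHDAC7 libraries, while editing and protein are not part of these data. Of 16 marker genes of the F36P state, 16 reached 1 CPM, against 1 of 8 genes of B and T cells, 2 of 6 of monocytes and macrophages and 2 of 5 of stroma and epithelium. The monocyte list summed to 99.6 to 109.99 CPM in sgHDAC7 and 97.9 to 126 CPM in sgNT, with no row at 1 CPM or more for CD14 and CSF1R. The lymphocyte list summed to 14.2 to 19.5 CPM in sgHDAC7 and 17.7 to 18.1 CPM in sgNT, with none for MS4A1 and PAX5, and the stromal list to 2.25 to 3.28 CPM in sgHDAC7 and 4.15 to 6.56 CPM in sgNT. The part of such cells in the results was not tested. In both groups replicate 1 differed most from the other libraries. The first principal component, with 35.8% of the variance, separated the guides, and the second, with 32.1%, separated replicate 1 from the rest. Results are given without and with a term for replicate 1. In bulk RNA, fewer cells with a transcript and less of it per cell cannot be told apart.

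Sequence shared with other rows limits what a row of this set measures, so it is described first. HNRNPA1 (chr12:54280726-54287087, plus strand, 11 exons, RefSeq GRCh38.p14) has 13 copies among the rows. The copies with the highest row levels were HNRNPA1P7 (chr18:32411501-32413237), HNRNPA1P10 (chr19:11665736-11667089) and HNRNPA1L3 (chr16:51645757-51647079).

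The HNRNPA1 row held only a minor part of the counts given to HNRNPA1-like sequence. It averaged 377 ± 16.7 CPM in sgHDAC7 and 392 ± 16.1 CPM in sgNT (SD, n = 3 each), while the pseudogene row HNRNPA1P7 averaged 696 CPM in sgHDAC7 and 729 CPM in sgNT. HNRNPA1P10 averaged 494 CPM in sgHDAC7 and 482 CPM in sgNT, and HNRNPA1L3 averaged 422 CPM in sgHDAC7 and 402 CPM in sgNT. These 3 copies thus had row levels above that of their parent. HNRNPA1L2 averaged 108 CPM in sgHDAC7 and 115 CPM in sgNT. HNRNPA1P35 averaged 38.0 CPM in sgHDAC7 and 42.2 CPM in sgNT. HNRNPA1P39 averaged 1.05 CPM in sgHDAC7 and 0.509 CPM in sgNT, so the copies spanned a wide range of levels. The copies other than HNRNPA1P4 and HNRNPA1P12 were named after their values were seen.

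**Figure D1:**
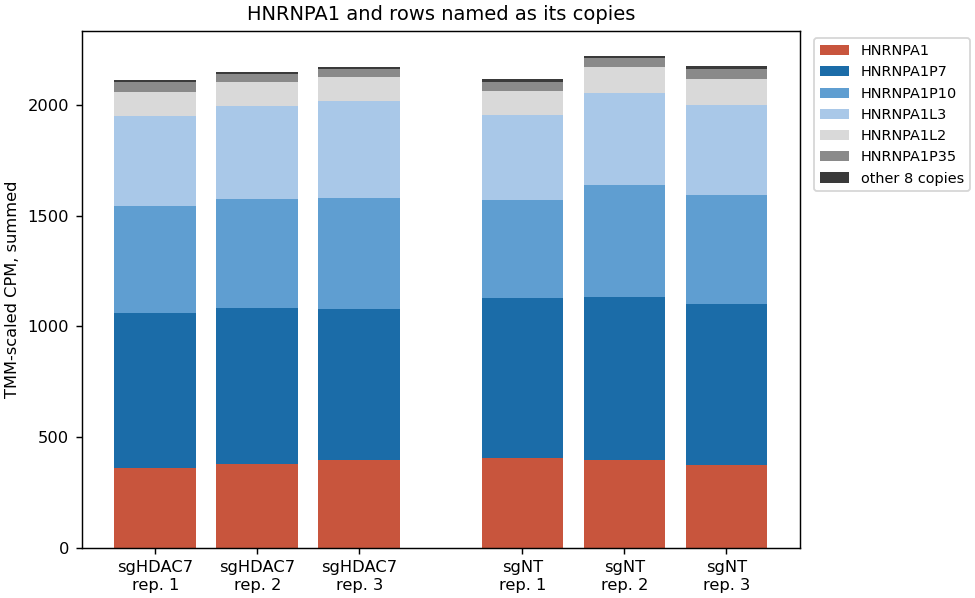
Stacked TMM-scaled CPM of HNRNPA1 and the 13 rows named as its copies, for the 3 sgHDAC7 libraries on the left and the 3 sgNT libraries on the right. The HNRNPA1 row is 17.0% to 18.1% of each sgHDAC7 stack and 17.1% to 19.1% of each sgNT stack.

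Summed with its 13 copies, HNRNPA1 sequence averaged 2147 ± 29.2 CPM in sgHDAC7 and 2174 ± 52.2 CPM in sgNT (SD, n = 3 each). The sum did not pass the test (log2 fold change -0.02 ± 0.06 SE, edgeR adjusted p = 0.896), nor did the HNRNPA1 row alone (-0.05 ± 0.06, adjusted p = 0.697). For HNRNPA3, an A-type ribonucleoprotein with 6 copies, the split itself differed between the groups without overlap. Its own row held 35.3% to 37.5% of the summed counts in sgHDAC7, against 38.8% to 41.7% in sgNT. The split also did not overlap for HNRNPDL and HNRNPR, whose own rows held 97.1% or more in every library. For every other parent with copies the split overlapped. As row levels, 25.1% of all genes tested did not overlap between the groups, and no such share was computed for splits. The HNRNPA3 row had a log2 fold change of -0.09, and the copies HNRNPA3P6 and HNRNPA3P5 had 0.13 and 0.24. The sum of all 7 rows had 0.07 ± 0.06 (adjusted p = 0.620). How the authors' counting shared reads between copies is not given in the sources used here, so values of these parents and copies are uncertain as measures of one locus.

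Across all copies with a transcript sequence, those with most counts shared much of their length with the parent gene. Of the 50-base windows of HNRNPA3P6, 76.6% occur letter for letter in transcripts of HNRNPA3. The share was 72.8% for HNRNPA1P10, 69.5% for HNRNPA1P7 and 53.6% for HNRNPCP2, a copy of HNRNPC with means of 278 CPM (sgHDAC7) and 263 CPM (sgNT). HNRNPA1P4 shares 40.6% of its windows but averaged 2.00 CPM in sgHDAC7 and 2.47 CPM in sgNT. Copies that missed the filter shared between 0% and 22.2%.

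**Figure D2:**
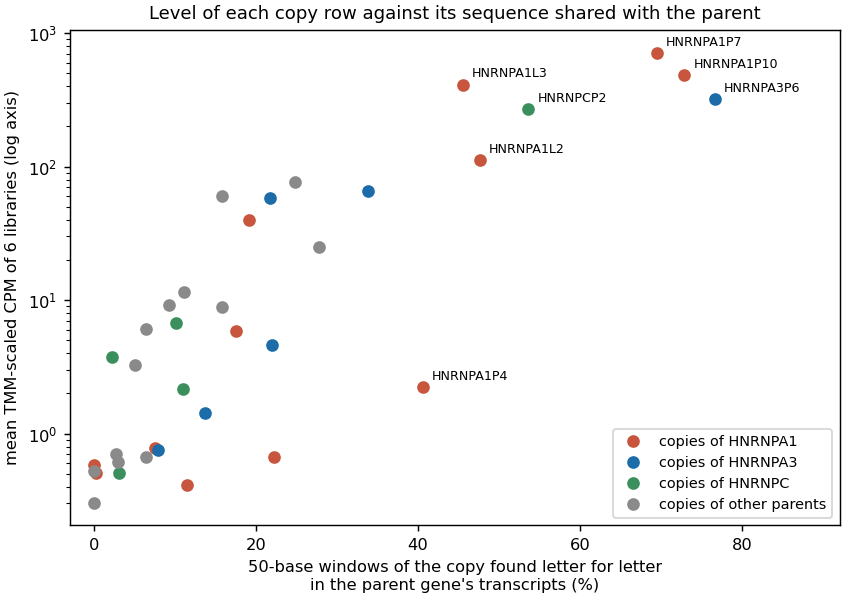
Each point is a copy, placed by the percentage of its 50-base windows found in its parent's transcripts and by its mean TMM-scaled CPM over 6 libraries (log axis). The 6 copies above 100 CPM all lie at 45.5% or more, and HNRNPA1P4, at 40.6%, has a low level.

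A mean of at least 1 CPM was reached by 65 of the 81 genes: 40 of the 41 coding genes and 25 of the 39 copies. The untested gene of the 41 was HNRNPH2, a binder of G-rich runs. It had 13, 7 and 6 counts in sgHDAC7, against 10, 4 and 6 counts in sgNT. Its exons overlap a readthrough gene, RPL36A-HNRNPH2, so its low row is not a measure of all its transcripts. HNRNPD-DT and 14 copies also missed the filter. Per kilobase of principal transcript, HNRNPC, which binds uridine tracts, was the most abundant of the coding genes tested, at a level of 442 CPM per kb in sgHDAC7 and 437 CPM per kb in sgNT. Over all 6 libraries HNRNPA2B1 followed with 343 CPM per kb in sgHDAC7 and 346 CPM per kb in sgNT, and SRSF1 with 356 CPM per kb in sgHDAC7 and 306 CPM per kb in sgNT. The lowest of the coding genes tested were SRSF8, at 5.04 CPM per kb in sgHDAC7 and 4.36 in sgNT, and SRSF12, at 1.20 in sgHDAC7 and 1.16 in sgNT. Of all 11466 protein-coding genes tested, 99.4% lay at or below HNRNPC in level per length and 9.89% at or below SRSF12. These levels use each gene's own row, without counts given to its copies. The HNRNPA1 row alone had 91.5 CPM per kb in sgHDAC7 and 95.0 in sgNT, so its place in this order is uncertain.

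As a group, the coding splicing factors differed little between the guides. With their copies they took 1.80% ± 0.03 of all counts in sgHDAC7 and 1.75% ± 0.04 in sgNT (SD, n = 3 each). HNRNP coding genes took 0.995% in sgHDAC7 and 0.968% in sgNT, SRSF coding genes 0.309% in sgHDAC7 and 0.290% in sgNT, and SF3 coding genes 0.223% in sgHDAC7 and 0.218% in sgNT. The median log2 fold change was 0.06 over the 40 coding genes tested and 0.04 over the 25 copies, against -0.0016 over all 13841 genes. Positive values were found for 31 of the 40 coding genes (77.5%) and for 49.7% of all genes. The median was 0.10 for SRSF genes (10 of 12 positive), 0.05 for HNRNP genes (13 of 19) and 0.07 for SF3 genes (8 of 9).

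With group as the single term, 1 of the 65 genes tested passed edgeR's quasi-likelihood test at an adjusted p under 0.05. It was SF3B4, and it was higher in sgHDAC7. Of all genes tested, 2.86% passed, 1.16% higher and 1.70% lower. At an unadjusted p under 0.05, 11 members were higher and 1 was lower, against 9.18% and 9.99% of all genes. With the replicate 1 term, 9 of the 65 were higher and 0 lower, where 5.78% of all genes were higher and 6.81% lower. They are SF3B4, SRSF1, SRSF2, SRSF6, HNRNPA0, HNRNPF and HNRNPU, and the copies SRSF6P2 and HNRNPA3P5. Beside the 0 lower members of that fit, replicates 2 and 3 alone gave 11 members higher and 3 lower (9.79% and 10.9% of all genes), and DESeq2 gave 1 higher and 0 lower (2.22% and 3.23% of its genes, 5.45% in all). Without sgNT replicate 1, 8 members passed with group alone, where 11.5% of all genes did. Without any other single library 0 members passed, and few genes did in all: 1.68%, 0.202% and 0.224% without sgHDAC7 replicates 1, 2 and 3, and 0.332% and 0.361% without sgNT replicates 2 and 3. The 3 libraries of each group did not overlap for 16 members with higher values and 5 with lower values in sgHDAC7, where 13.0% and 12.2% of all genes did so.

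**Figure D3:**
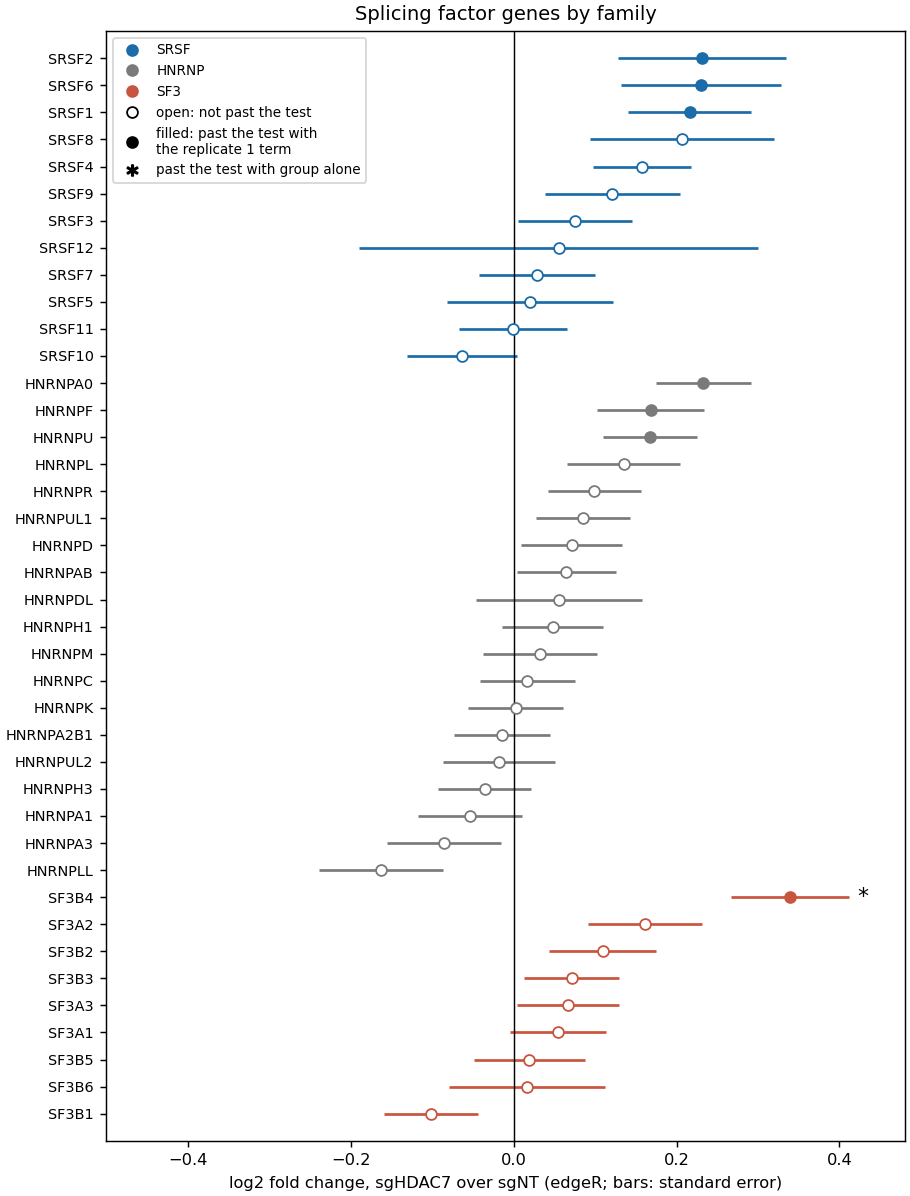
Points give the edgeR log2 fold change, sgHDAC7 over sgNT, of the 40 coding genes tested, with bars for the standard error and colours for the family. SF3B4 lies farthest right at 0.34 and HNRNPLL farthest left at -0.16, and the 7 filled points are past the test with the replicate 1 term.

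SF3B4 is the SF3B subunit that contacts precursor RNA just upstream of the branch site. It had 138, 143 and 137 CPM in sgHDAC7, against 117, 113 and 100.3 CPM in sgNT, so the groups did not overlap. The mean was 139 ± 3.15 CPM in sgHDAC7 and 109.9 ± 8.51 CPM in sgNT (SD, n = 3 each), 1.27-fold higher (log2 fold change 0.34 ± 0.07 SE, edgeR adjusted p = 0.0426). The exact permutation test on these 6 values, two-sided, cannot go below p = 0.1 with 3 libraries a group, and gave that value. Within replicate 1 the log2 ratio was 0.24, and within replicates 2 and 3 it was 0.39. The adjusted p was 0.0051 with the replicate 1 term and 0.0118 in DESeq2. Without any one library the log2 fold change stayed between 0.28 and 0.38. The adjusted p was 0.0054 without sgNT replicate 1, and between 0.0873 and 0.198 without any other library, where the call was lost. It was also lost with library totals in place of TMM scaling (0.0502).

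The gene lies at chr1:149923317-149927803 on the minus strand of GRCh38.p14. The 250 bases before its start (chr1:149927804-149928053) are shown because it is the one member past the test with group alone. Capitals mark matches to GGGCGG (the GC box) or CCGGAAG (an ETS-type motif) on either strand.
SF3B4: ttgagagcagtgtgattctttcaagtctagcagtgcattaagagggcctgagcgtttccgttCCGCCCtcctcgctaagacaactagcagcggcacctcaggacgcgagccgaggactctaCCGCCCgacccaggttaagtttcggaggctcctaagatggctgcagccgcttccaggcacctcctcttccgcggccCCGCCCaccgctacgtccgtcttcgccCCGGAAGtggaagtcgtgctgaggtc
The stretch holds 3 GC boxes and 1 ETS-type match. A GC box occurs in 65.8% of the 38 coding members found in the RefSeq promoter table, 66.8% of the 9941 tested genes found there and 42.6% of all its 35116 promoters. The ETS-type motif occurs in 28.9% of those members, 16.9% of those tested genes and 8.52% of all promoters. Of the motifs without a match here, CCAAT occurs in 42.1% of those members and 35.4% of those tested genes. The E-box occurs in 18.4% and 8.99%, CRE in 0% and 3.01%, and NRF1 in 0% and 2.01%. A match describes the letters and does not show a binding site.

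The other SF3 genes did not pass in either fit. SF3B1, the largest SF3B subunit and the one that holds the branch site, had 517, 547 and 539 CPM in sgHDAC7, against 569, 566 and 584 CPM in sgNT. It was the one coding member whose values in sgHDAC7 all lay below those in sgNT (log2 fold change -0.10 ± 0.06 SE, edgeR adjusted p = 0.377). SF3A2, a subunit that binds U2 RNA together with SF3A3 and SF3A1, averaged 129 ± 5.65 CPM in sgHDAC7 and 115 ± 6.64 CPM in sgNT (SD, n = 3 each; log2 fold change 0.16, edgeR adjusted p = 0.247). In edgeR on replicates 2 and 3 alone, where 20.7% of all genes passed, SF3A2 had an adjusted p of 0.0398. SF3A1 had a log2 fold change of 0.05 ± 0.06. SF3B6, the small subunit that touches the branch point adenosine, had 0.02 ± 0.10, with a log2 ratio of -0.24 within replicate 1 and 0.14 within replicates 2 and 3. SF3A3, SF3B2, SF3B3 and SF3B5 lay between 0.02 and 0.11. The pseudogene rows SF3A3P1 and SF3A3P2 averaged under 7 CPM in both groups and did not pass (adjusted p = 0.716 and 0.993).

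Among the SR genes, SRSF1, SRSF2 and SRSF6 passed with the replicate 1 term but not with group alone. SRSF1, an activator of many exons, had 552, 533 and 529 CPM in sgHDAC7, against 514, 442 and 434 CPM in sgNT, with no overlap (log2 fold change 0.22 ± 0.08 SE). Its edgeR adjusted p was 0.155 with group alone and 0.0212 with the replicate 1 term. SRSF2, which binds exonic enhancers, had 349.9, 318 and 332 CPM in sgHDAC7, against 336, 262 and 254 CPM in sgNT. Its groups overlapped through replicate 1 of sgNT, and the adjusted p was 0.260 with group alone and 0.0275 with the replicate 1 term. SRSF6, a regulator of exon inclusion, had 296, 258 and 275 CPM in sgHDAC7, against 272, 225 and 210.3 CPM in sgNT (adjusted p = 0.237 and, with the term, 0.0224). Its groups overlapped through the same sgNT library.

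For these 3 genes, replicate 1 of sgNT was higher than the other sgNT libraries, and the guide difference was smaller within replicate 1. The log2 ratio within replicate 1 was 0.10 for SRSF1, 0.06 for SRSF2 and 0.12 for SRSF6. Within replicates 2 and 3 it was 0.28, 0.33 and 0.29 (adjusted p = 0.00024, 0.000037 and 0.00034 in edgeR on those 4 libraries). In that fit 20.7% of all genes passed. Whether the ratios differ between replicate 1 and the others was not tested. The exons of SRSF2 overlap those of MFSD11 and MIR636 in the annotation, and those of SRSF1 overlap 2 unnamed genes. The use of strand in counting is not given in the sources used here, so reads from such pairs cannot be told apart. Such overlaps are annotated for other members too, among them SRSF9 (GATC), SF3A1 (CCDC157), SF3A2 (PLEKHJ1), HNRNPA2B1 (CBX3) and HNRNPUL1 (TGFB1). SRSF6P2, the pseudogene of SRSF6, had 32.9, 25.2 and 27.3 CPM in sgHDAC7, against 23.03, 20.2 and 20.5 CPM in sgNT, with 27.8% of its windows shared with SRSF6. With SRSF6P2 added to SRSF6, the sum had a log2 fold change of 0.25 ± 0.10 SE (edgeR adjusted p = 0.203 with group alone, 0.0139 with the term).

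The remaining 9 SR genes did not pass in either fit. SRSF3 and SRSF7, which also serve as adaptors for export of messenger RNA, had log2 fold changes of 0.08 ± 0.07 and 0.03 ± 0.07. SRSF10, whose activity depends on its phosphorylation, averaged 223 ± 3.74 CPM in sgHDAC7 and 233 ± 15.8 CPM in sgNT (SD, n = 3 each; log2 fold change -0.06, edgeR adjusted p = 0.658). SRSF11 averaged 354 CPM in both groups (354 ± 11.6 in sgHDAC7, 354 ± 21.7 in sgNT). SRSF5 had 298, 250.2 and 271 CPM in sgHDAC7, against 312, 246 and 250.4 CPM in sgNT, so replicate 1 was highest within both groups. SRSF4 and SRSF8, named after their values were seen, did not overlap between the groups and were higher in sgHDAC7 in all 3 libraries (adjusted p = 0.192 and 0.357). In edgeR on replicates 2 and 3 alone, where 20.7% of all genes passed, SRSF4 had an adjusted p of 0.0259. SRSF9 and SRSF12 had adjusted p-values of 0.468 and 0.928.

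**Figure D4:**
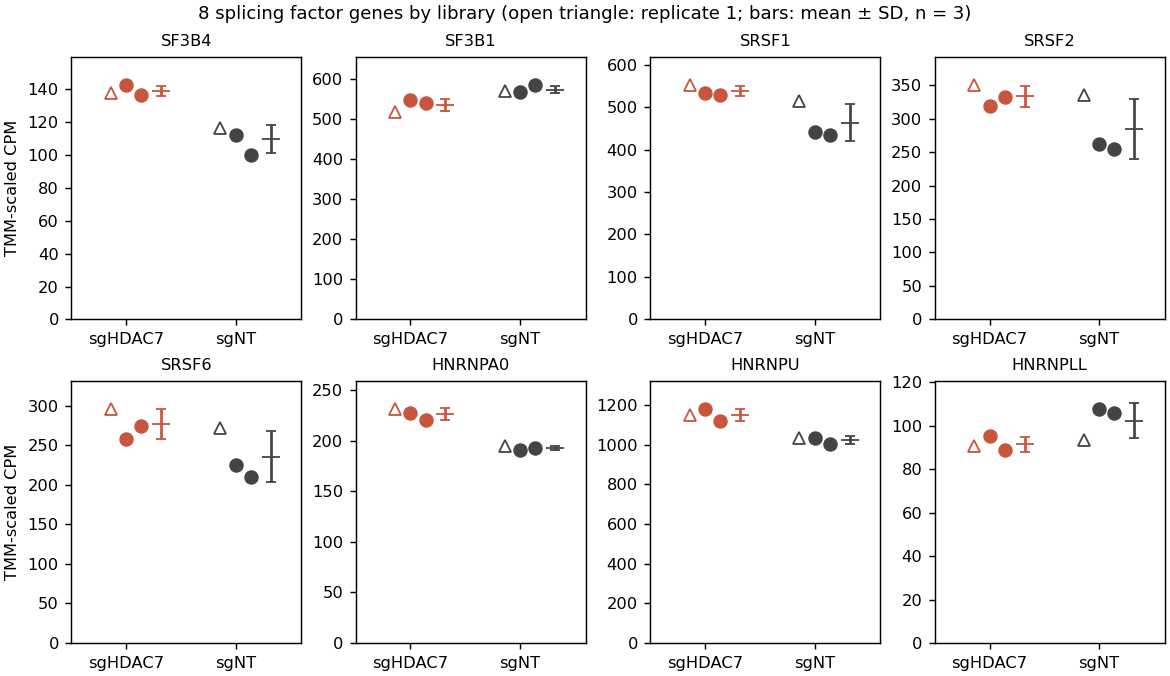
TMM-scaled CPM of 8 genes by library, sgHDAC7 on the left and sgNT on the right of each panel, with open triangles for replicate 1 and bars for mean ± SD (n = 3). SF3B4, SRSF1, HNRNPA0 and HNRNPU do not overlap and are higher in sgHDAC7, SF3B1 does not overlap and is lower, and for SRSF2 and SRSF6 the replicate 1 library of sgNT reaches the sgHDAC7 values.

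Among the HNRNP genes, HNRNPA0, HNRNPF and HNRNPU passed with the replicate 1 term and not with group alone. HNRNPA0, an A-type protein with a single-exon gene that also binds AU-rich elements, had 231, 227 and 220.2 CPM in sgHDAC7, against 195, 190.4 and 192 CPM in sgNT. The 2 ranges lay apart, with little spread within either group (log2 fold change 0.23 ± 0.06 SE, edgeR adjusted p = 0.0657 with group alone and 0.0123 with the term). HNRNPU, a large nuclear protein that binds chromatin-associated RNA, had 1149, 1181 and 1118 CPM in sgHDAC7, against 1034, 1036 and 1001 CPM in sgNT. It did not overlap either (log2 fold change 0.17 ± 0.06 SE, adjusted p = 0.150 and, with the term, 0.0495). With its copy HNRNPUP1 added, the adjusted p with the term was 0.0501. The exons of HNRNPU overlap those of COX20 in the annotation. HNRNPF, a binder of G-rich runs, had 580.2, 529.5 and 542 CPM in sgHDAC7, against 516, 473 and 482 CPM in sgNT (log2 fold change 0.17 ± 0.07, adjusted p = 0.198 and, with the term, 0.0447). HNRNPA0 and HNRNPF were named after their values were seen.

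The lowest coding fold change was that of HNRNPLL, a repressor of variable exons of PTPRC (CD45) in lymphocytes. It had 90.6, 95.2 and 88.7 CPM in sgHDAC7, against 93.3, 108 and 106 CPM in sgNT (log2 fold change -0.16 ± 0.08 SE, edgeR adjusted p = 0.284). The groups overlapped through replicate 1, where the log2 ratio was -0.04, while within replicates 2 and 3 it was -0.22. The adjusted p in edgeR on replicates 2 and 3 alone was 0.0158, where 20.7% of all genes passed. Several of the most abundant HNRNP genes were close to 0. HNRNPA2B1, which packages RNA in core particles with A1 and C proteins, averaged 1198 ± 10.3 CPM in sgHDAC7 and 1209.8 ± 48.4 CPM in sgNT (SD, n = 3 each; log2 fold change -0.01 ± 0.06 SE). HNRNPK, a binder of C-rich RNA, averaged 600.1 ± 3.85 CPM in sgHDAC7 and 599 ± 21.4 CPM in sgNT, a log2 fold change of 0.0026 ± 0.06. HNRNPC had 0.02 ± 0.06 and HNRNPD, a regulator of AU-rich messenger RNAs, had 0.07 ± 0.06. HNRNPL, a binder of CA repeats, and its fellow ribonucleoproteins HNRNPR and HNRNPUL1 did not overlap between the groups and were higher in sgHDAC7, but missed the test (adjusted p = 0.328, 0.381 and 0.459). The remaining 7 HNRNP coding genes lay between -0.09 (HNRNPA3) and 0.06 (HNRNPAB), all with overlapping groups. These 5 genes were named after their values were seen.

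Of the 25 copies tested, 14 had positive fold changes. With group alone 0 passed in edgeR and 0 in DESeq2, where 2.86% and 5.45% of all genes did. At an unadjusted p under 0.05 in edgeR, 2 were higher and 1 lower, where 9.18% and 9.99% of all genes were. HNRNPA3P5 had 68.04, 70.7 and 73.2 CPM in sgHDAC7, against 58.9, 59.8 and 61.4 CPM in sgNT (log2 fold change 0.24 ± 0.07 SE, edgeR adjusted p = 0.108 with group alone and 0.0353 with the term). HNRNPA1P12 had the lowest value of all members, with 5.48, 3.71 and 4.45 CPM in sgHDAC7, against 7.71, 5.57 and 8.17 CPM in sgNT (-0.65 ± 0.23, adjusted p = 0.159). HNRNPA3P10 had the highest, 0.46 ± 0.33, with overlapping groups and levels under 8 CPM. HNRNPA3P1, HNRNPA1P4 and HNRNPDLP5 were below 4 CPM in every library and had adjusted p-values of 0.808, 0.622 and 0.571. With all copies added to their parents, 40 coding genes remained. SF3B4 alone passed with group alone (2.91% of 13816 genes passed in either direction). With the replicate 1 term 6 were higher (5.74% of all genes), namely SF3B4, SRSF1, SRSF2, SRSF6, HNRNPA0 and HNRNPF.

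Other genes of the splicing machinery were taken from 10 lists of 184 genes in all, of which 180 are in the table and were tested. With group alone 4 were higher and 2 lower in sgHDAC7 in edgeR, where 1.16% and 1.70% of all genes were. With the replicate 1 term 21 were higher and 6 lower, where 5.78% and 6.81% of all genes were. DESeq2 with group alone gave 7 higher and 2 lower (2.22% and 3.23% of its genes). Without sgNT replicate 1, 28 passed in edgeR, where 11.5% of all genes did. Without any other single library between 0 (without sgHDAC7 replicate 2) and 4 passed, where 0.202% to 1.68% of all genes did. The median log2 fold change of the 180 genes was 0.03. The 6 genes past the test belong to 2 lists, other regulators of alternative splicing (3 higher and 1 lower of 36) and the U1 and 5′ splice site list (1 higher and 1 lower of 8).

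TAF15, an RNA-binding protein of the FET family, had 134, 139.9 and 138 CPM in sgHDAC7, against 98.2, 90.9 and 94.3 CPM in sgNT (1.45-fold, edgeR adjusted p = 0.00484). CELF2, which regulates exons in blood and other tissues, had 290.4, 211 and 196 CPM in sgHDAC7, against 132, 99.0 and 98.3 CPM in sgNT (2.12-fold, adjusted p = 0.0134). DDX17, an RNA helicase, averaged 517 ± 4.28 CPM in sgHDAC7 and 408 ± 17.4 CPM in sgNT (SD, n = 3 each; 1.27-fold, edgeR adjusted p = 0.0231). These 3 rises were seen in all 3 libraries, with no overlap with sgNT. RBM25, which acts with U1 at the 5′ splice site, averaged 258 ± 24.9 CPM in sgHDAC7 and 198 ± 11.6 CPM in sgNT (SD, n = 3 each; 1.31-fold, edgeR adjusted p = 0.0436). The groups did not overlap for RBM25 either. Of the 180 genes, 40 did not overlap with higher values in sgHDAC7 and 14 with lower values, where 13.0% and 12.2% of all genes did so.

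PRPF39, a U1-associated protein, fell to 57.2, 52.7 and 57.7 CPM in sgHDAC7, against 78.3, 83.1 and 83.0 CPM in sgNT (log2 fold change -0.54 ± 0.07 SE, edgeR adjusted p = 0.00892). MBNL2, a muscleblind-like regulator of developmental exons, fell to 26.7, 24.6 and 22.5 CPM in sgHDAC7, against 31.8, 54.5 and 61.3 CPM in sgNT (0.50-fold, adjusted p = 0.0384). Most of its difference lay in replicates 2 and 3, with a log2 ratio of -1.28, against -0.25 within replicate 1.

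In the other 8 lists no gene passed edgeR with group alone, while DESeq2 called SCAF1, SF1 and SMG5, all higher (adjusted p = 0.0144, 0.0448 and 0.0302). Among other serine-arginine proteins the smallest p-values were those of SCAF1 and LUC7L2 (log2 fold change 0.33 and 0.31, edgeR adjusted p = 0.0579 and 0.0706). Among SR kinases and their partners they were those of PPIG and CLK4, a kinase that phosphorylates SR proteins (0.28 and -0.37, adjusted p = 0.0860 and 0.286). At the branch point and 3′ splice site SF1, the branch point binding protein, had 0.27 and CHERP had 0.22 (adjusted p = 0.0867 and 0.129). In the Sm and LSm list COIL, the scaffold of Cajal bodies, had 0.30 and SNRPB, a core Sm protein, had -0.16 (adjusted p = 0.0773 and 0.218), and 7 of its 22 genes were positive. In the tri-snRNP PRPF3 had -0.22 and ZMAT2 had 0.25 (adjusted p = 0.122 and 0.154), and among catalytic factors DHX38 had 0.23 and BUD31 had -0.26 (adjusted p = 0.0828 and 0.170).

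The exon junction and nonsense-mediated decay list had a median log2 fold change of 0.10 with 12 of 15 genes positive, and its smallest p-values were those of SMG5 and UPF2, both decay factors (0.29 and 0.26, edgeR adjusted p = 0.0703 and 0.137). The nuclear RNAs MALAT1 and NEAT1 had 0.76 ± 0.25 and 0.24 ± 0.08 (adjusted p = 0.137 and 0.142). MALAT1 was low in these poly-A libraries, averaging 8.97 ± 2.56 CPM in sgHDAC7 and 5.29 ± 1.02 CPM in sgNT (SD, n = 3 each).

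**Figure D5:**
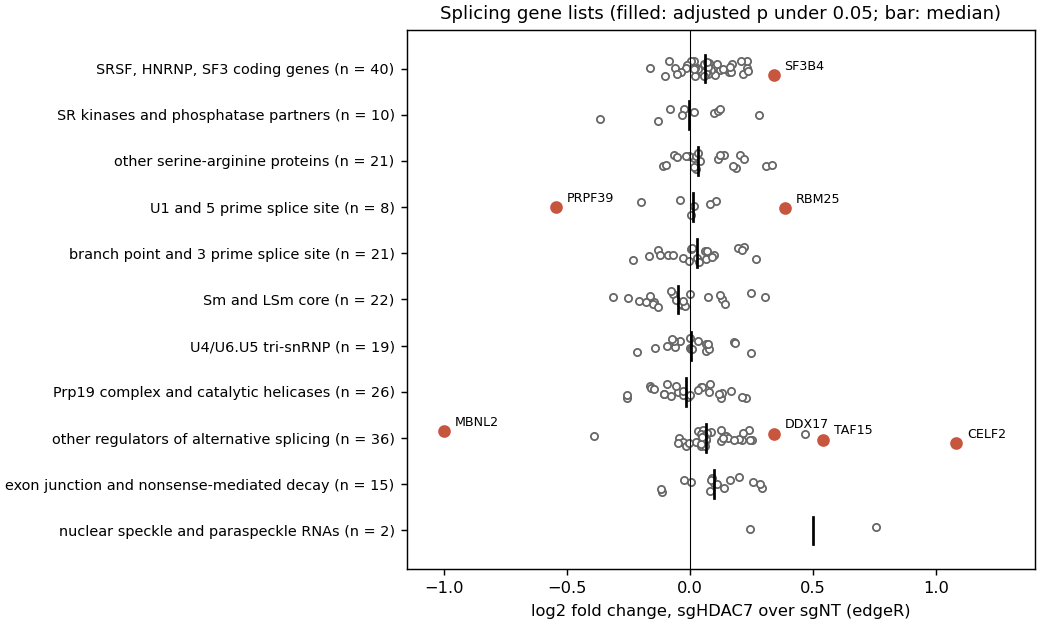
Log2 fold changes, sgHDAC7 over sgNT, of the coding SRSF, HNRNP and SF3 genes in the top row and of 10 further splicing lists below, with a bar at each median and filled points for an edgeR adjusted p under 0.05. CELF2, at 1.08, lies farthest right and MBNL2 farthest left, and the list medians lie between -0.05 and 0.10 apart from the 2 nuclear RNAs.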

How the data were processed

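Messenger RNA was measured in 6 F36P libraries. The authors deposited 1 table of gene counts for all of them; its name says CPM, but 100% of the values are whole and column totals differ, so they were treated as unscaled counts. Columns named NC were taken as sgNT, the only other group. The submitters' processing notes name hg38 and edgeR 3.32.1 but no role for either. Which aligner, counter and annotation were used, and whether strand was, is not given in the sources used here. No gene in the table has fewer than 2 libraries over 0.5 CPM, and there are 0 further columns of values.

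The 13841 genes with a mean of at least 1 CPM were tested by quasi-likelihood in edgeR 4.0.16 under R 4.3.3 (TMM scaling, group as the single term, two-sided, Benjamini-Hochberg adjustment over all of them, threshold 0.05). CPM values are TMM-scaled with mean ± SD. SE marks the standard error of a log2 fold change. For edgeR it was derived as the absolute log2 fold change divided by the square root of the quasi-likelihood F statistic. Alternatives were DESeq2 1.42.0, limma 3.58.1, other scalings and filters, a replicate 1 term, replicates 2 and 3 alone, a replicate block and leaving out each library. Summing copies into parents was added after seeing the data. The scripts were tested on simulated counts.

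The members, the gene lists and the named genes' rule were chosen with earlier results of these data known. Named are members past the test, the 3 largest and 3 smallest fold changes per family, a fixed panel of 14 genes, and, per other list, the genes past the test or the 2 smallest p-values. Any other gene was named after its values were seen. Positions are from RefSeq GRCh38.p14, which matched all 81 members. Lengths and exon counts are from GENCODE 29, which matched 78. Some sequences and marker genes are not reported here.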

Additional observations from a re-analysis of the deposited data

How the results depend on the processing

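The number of members past the test was 1 in edgeR, DESeq2, limma-trend, RLE and upper quartile scaling, with no filter, with a mean CPM of at least 5 and with copies summed. It was 0 with library totals, 9 with the replicate 1 term, 14 with replicates 2 and 3 alone, and 0 to 8 when each library was left out. For the other splicing genes the count was 6 in edgeR, 9 in DESeq2 and 5 in limma-trend. It was 27 with the replicate 1 term, 45 with replicates 2 and 3 alone and 0 to 28 when each library was left out. Of all genes tested, 2.86% passed in edgeR and 5.45% in DESeq2. The shares were 12.6% with the replicate 1 term and 20.7% with replicates 2 and 3 alone. They ran from 0.202% to 11.5% when each library was left out. With the replicate number as a block, 3 members and 15 other splicing genes passed, where 7.21% of all genes did. No label says that same-numbered libraries share more than a number. Their deviations correlated at 0.303 for replicate 1, 0.107 for replicate 2 and 0.0968 for replicate 3. The members' median log2 fold change was 0.05, between 0.0325 and 0.0809 when each library was left out. HDAC7 stayed past the test under every alternative listed here. The cause of these changes was not tested.

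Signs that turned belonged to members that passed under no alternative here, most of them near 0. HNRNPA3P1, at 0.35 with a standard error of 0.61, was not near 0. With limma-trend HNRNPA3P1 had -0.0504, SF3A3P2 0.10 and SRSF11 0.0008. With library totals HNRNPC had -0.0003, HNRNPK -0.0149 and SF3B6 -0.0017. SRSF11 had 0.0017 with upper quartile scaling and 0.0022 with no filter, and HNRNPK -0.0001 with a mean CPM of at least 5. With the replicate block SF3A3P2 had 0.0424 and SRSF11 0.0008, and with the replicate 1 term SF3A3P2 had 0.0179. With replicates 2 and 3 alone HNRNPA1 had 0.0012, HNRNPC -0.0012, SF3A3P2 0.40 and SRSF11 0.0014. When each library was left out, the range was -0.0189 to 0.0301 for HNRNPC, -0.0197 to 0.0312 for HNRNPK, -0.34 to 0.32 for SF3A3P2, -0.0396 to 0.0476 for SRSF11, -0.0551 to 0.138 for SRSF5, -0.37 to 0.82 for HNRNPA3P1, -0.0516 to 0.0969 for SF3B6, -0.0145 to 0.0728 for SRSF7 and -0.0369 to 0.0179 for HNRNPA2B1.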

Other observations

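Replicate 1 held more messenger RNA of several SR genes than replicates 2 and 3, with either guide. The log2 ratio of replicate 1 to the mean of replicates 2 and 3 was above 0 in both groups for 7 of the 12 SRSF genes (58.3%) and 11 of the 19 tested HNRNP coding genes (57.9%), and for 29.6% of all genes tested. The median ratio over the SRSF genes was 0.08 in sgHDAC7 and 0.15 in sgNT. Over all genes it was -0.0077 in sgHDAC7 and 0.0065 in sgNT. SRSF5 had 0.19 in sgHDAC7 and 0.33 in sgNT, and SRSF6 had 0.15 in sgHDAC7 and 0.32 in sgNT. HNRNPDL, a relative of HNRNPD chosen after its values were seen, had 0.19 in sgHDAC7 and 0.35 in sgNT, while SF3 genes had medians of -0.0042 in sgHDAC7 and 0.03 in sgNT. No label says what sets replicate 1 apart, and the source of these differences was not tested.

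Many of these genes have annotated transcripts that gene counts cannot separate from the productive ones. GENCODE 29 lists a transcript marked for nonsense-mediated decay for 12 of the 12 SRSF genes, 13 of the 19 HNRNP genes and 3 of the 9 SF3 genes tested, or 70.0% of coding members, against 44.0% of 11466 tested coding genes. A retained intron transcript is listed for 72.5% of coding members and for 58.5% of tested coding genes. A gene's row adds such transcripts to those that encode the protein.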
